A study of Mus musculus with 10 samples.

Results

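The subject is 10 genes that mark tissue macrophages or macrophage states, measured in whole mouse kidney: Adgre1, Csf1r, Cd68, Cx3cr1, Lyz2, Mrc1, Cd163, Trem2, Retnla and Chil3. They were picked by name with earlier results of the same comparison in view. Each stands in the results by its transcript of highest mean level, so the 10 genes take up 22 of 85107 transcript rows and 10 of 27876 genes. Because the choice was made on this contrast, the values below describe the genes and are not offered as support for any pattern among them.

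RNA was sequenced from kidneys of wild-type mice taken on day 14. One group of 5 mice drank water with quinolinic acid (0.5 g/L), and a second group of 5 was given vehicle. Quinolinic acid is made from tryptophan by the kynurenine pathway and able to activate NMDA receptors, and the comparison asks which kidney RNAs differ when it is in excess. The series text calls the 5 mice of each group representative without saying how they were chosen, all 10 libraries carry 1 batch label, and strain, sex, age and any prior kidney injury are not stated there.

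All values come from the authors' deposited table, the finished output of a likelihood-ratio test for vehicle versus quinolinic acid. For each transcript it holds a log2 fold change (LFC below) and a mean level as CPM, the count scaled to a fixed library size, but no value of a single mouse, so the spread between mice and the depth of each library cannot be shown. The errors given are approximate 95% intervals, which follow from each LFC and its test statistic. The table does not name the numerator of the fold change, so a sign is given as deposited and does not say which group had more RNA. The labelled tissue matched its markers, since the 8 tubule and podocyte genes checked, among them Slc34a1, Umod and Cdh16, had mean levels from 18.5 to 1430 CPM by the authors' deposited table.

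Kidney macrophages are long-lived resident phagocytes that lie between the tubules and are joined by cells from blood monocytes. They depend on the growth factor receptor encoded by Csf1r, and mouse kidney macrophages are commonly recognised by F4/80, the product of Adgre1, and by the chemokine receptor CX3CR1. TREM2 is a lipid-sensing receptor of phagocytes that signals through the adaptor TYROBP and is known from macrophages that take up lipid and cell debris. Retnla encodes RELM-alpha (also FIZZ1), a small secreted protein that, with Chil3 and Arg1, is a classic product of mouse macrophages exposed to interleukin-4 or interleukin-13.

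Within the set, Trem2 and Retnla lay far from 0 with opposite signs, and the general macrophage genes lay close to it. Trem2 had an LFC of 1.45 (approximate 95% interval 0.53 to 2.37), a 2.73-fold difference at 5.15 CPM, in the authors' deposited table. For Retnla the authors' deposited table gave -2.14 (-3.42 to -0.86), a 4.41-fold difference at 1.89 CPM. Neither passed the test over all transcripts, the authors' deposited table listing adjusted p-values of 0.515 (Trem2) and 0.422 (Retnla). Of the 10 genes, 8 reached a mean of 1 CPM, and Cd163 and Chil3 did not. No member was called at an adjusted p under 0.05, a threshold that 0.0215% of genes passed with their representative row. At an unadjusted p under 0.05 there were 2 of 10 members, 1 of each sign, against 5.12% of all genes, and since the members were chosen on this contrast nothing is read from that share. The median LFC was -0.01 over the 10 members and 0.04 over all genes.

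**Figure D1:**
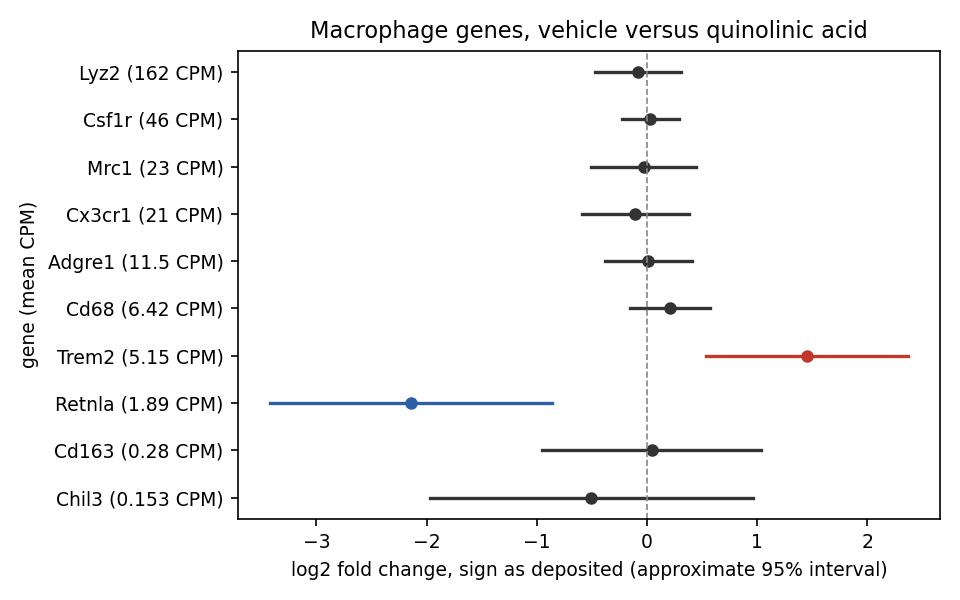
LFC of each of the 10 genes (x axis, sign as deposited) with its approximate 95% interval as a line, genes ordered on the y axis by mean CPM. Trem2 at 1.45 and Retnla at -2.14 have intervals that leave out 0, and the other 8 intervals include it.

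The promoters of these 2 genes are shown because their RNA differed most within the set. Each window runs from 250 bases before to 50 bases after the RefSeq start of the gene (GRCm38.p6, the assembly of mm10), 5′ to 3′ on the gene's strand. Capitals mark matches on either strand to 3 short motifs: GAGGAA for PU.1, the factor that myeloid cells depend on, TTCNNNNGAA for STAT6, which acts downstream of interleukin-4, and TTGCNNNAA for C/EBP factors. Retnla lies at chr16:48842359-48842658 on the plus strand and Trem2 at chr17:48346151-48346450 on the plus strand.
Retnla promoter: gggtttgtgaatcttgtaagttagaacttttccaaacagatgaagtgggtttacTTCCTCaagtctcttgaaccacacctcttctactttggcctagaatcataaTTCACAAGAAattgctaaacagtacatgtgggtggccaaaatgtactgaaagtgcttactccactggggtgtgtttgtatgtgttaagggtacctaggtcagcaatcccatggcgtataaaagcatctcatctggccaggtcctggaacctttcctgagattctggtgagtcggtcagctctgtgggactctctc
Trem2 promoter: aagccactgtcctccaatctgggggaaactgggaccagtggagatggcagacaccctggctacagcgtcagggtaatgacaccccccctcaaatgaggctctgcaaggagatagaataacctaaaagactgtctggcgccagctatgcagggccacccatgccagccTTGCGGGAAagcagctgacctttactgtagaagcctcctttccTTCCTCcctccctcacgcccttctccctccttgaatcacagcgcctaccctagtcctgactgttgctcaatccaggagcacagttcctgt

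The Retnla window holds the STAT6 letters TTCACAAGAA, which begin 145 bases before the start, and 1 PU.1 match on the minus strand, 196 bases before it. In the Trem2 window the C/EBP letters TTGCGGGAA begin 83 bases before the start and 1 PU.1 match on the minus strand begins 40 bases before it. None of these matches overlap. Of 32851 RefSeq promoters of the same length, 28.3% hold the PU.1 letters, 6.95% the STAT6 letters and 9.56% the C/EBP letters. Promoter sequences were found for 8 of the 10 members, all but Adgre1 and Csf1r, and among those 8 the STAT6 letters occur in Retnla alone and the C/EBP letters in Trem2 alone. A match describes the letters and does not show that a factor binds there.

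The lineage genes come first, as the broadest measure of macrophage RNA in the tissue, with their mm10 spans. Csf1r (chromosome 18, 61100598 to 61132149, plus strand), which encodes the receptor for the macrophage growth factors CSF1 and interleukin-34, had an LFC of 0.03 (-0.23 to 0.29) at 46.0 CPM by the authors' deposited table. Adgre1 (chromosome 17, 57358691 to 57483527, plus strand) had one of 0.01 (-0.38 to 0.41) at 11.5 CPM by the authors' deposited table. Cd68 (chromosome 11, 69664213 to 69666153, minus strand), which encodes a lysosomal membrane protein of phagocytes, stood at 0.21 (-0.16 to 0.57) and 6.42 CPM by the authors' deposited table. These 3 genes differed by less than their approximate errors allow to be told from 0. In whole tissue, fewer cells of a type and less RNA per cell cannot be told apart, and this holds for every gene below.

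Cx3cr1 (chromosome 9, 119901616 to 120069879, minus strand), the receptor for the chemokine fractalkine, had an LFC of -0.10 (-0.59 to 0.38) at 21.0 CPM by the authors' deposited table. Lyz2 (chromosome 10, 117277331 to 117282321, minus strand), which encodes lysozyme M and is the gene used to drive Cre in myeloid cells, had one of -0.08 (-0.47 to 0.31) at 162 CPM by the authors' deposited table. Mrc1 (chromosome 2, 14229392 to 14332057, plus strand), the mannose receptor CD206 found on many resident and alternatively activated macrophages, stood at -0.03 (-0.50 to 0.45) and 23.0 CPM by the authors' deposited table. Their intervals also include 0. Across these 6 genes of at least 1 CPM the LFCs ran from -0.10 to 0.21. The outermost interval bounds were -0.59 (Cx3cr1) and 0.57 (Cd68), the latter a 1.49-fold difference.

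The scavenger receptor gene Cd163 (chromosome 6, 124304656 to 124330527, plus strand), whose protein clears haemoglobin bound to haptoglobin, was scarce, at 0.280 CPM with an LFC of 0.04 (-0.95 to 1.04) in the authors' deposited table. Chil3 (chromosome 3, 106147554 to 106167564, minus strand), which encodes the chitinase-like protein Ym1, was scarcer, at 0.153 CPM with an LFC of -0.50 (-1.97 to 0.96) in the authors' deposited table. The lowest mean level of any row was 0.0201 CPM. At these levels the intervals reach to 1.94-fold or further on both sides, so a difference of that size in either direction remains possible for both genes.

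Per length of transcript, Lyz2 stood highest of the 10 genes, at 123 CPM per kb. Csf1r followed at 9.79 CPM per kb, Cx3cr1 at 5.58, Cd68 at 5.22, Mrc1 at 4.29, Adgre1 at 3.56 and Retnla at 3.15, all as CPM per kb. Trem2 had 1.08 CPM per kb by its row of highest CPM (5.15), a 4784-nt transcript that keeps an intron. By its coding transcript of 1056 nt (4.96 CPM) it had 4.70 CPM per kb. These rows share reads, so their order does not show which form of Trem2 RNA is more abundant. Chil3 had 0.0993 CPM per kb and Cd163 0.0630 CPM per kb. Lyz2 thus exceeded the next gene more than 10-fold. The order below Lyz2 depends on the row taken. Other rows gave 11.9 CPM per kb for Csf1r, 9.94 for Mrc1, 9.62 for Cd68 and 4.36 for Cx3cr1. The spread between mice that would separate neighbours lower in the order was also not available.

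**Figure D2:**
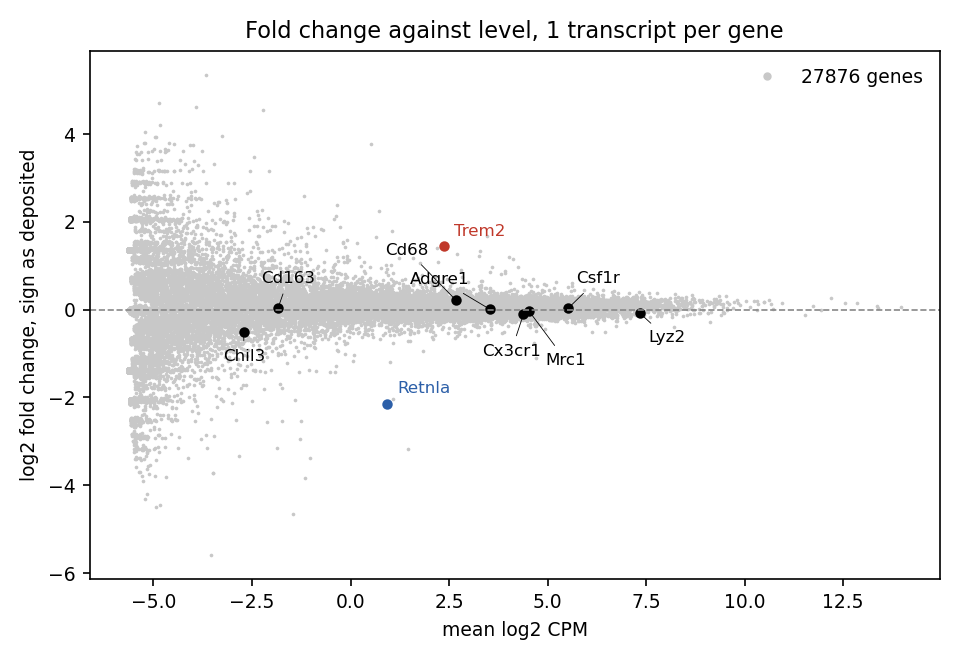
LFC (y axis, sign as deposited) against mean log2 CPM (x axis) for 27876 genes in grey, with the 10 macrophage genes marked. Trem2 and Retnla lie outside the band of genes of their level, and Csf1r, Adgre1, Cd68, Cx3cr1, Mrc1 and Lyz2 lie near 0.

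Set against all 13115 genes of at least 1 CPM, Retnla ranked 4 and Trem2 ranked 10 by the size of the LFC. By p, Retnla ranked 25 and Trem2 ranked 37 of the 13115. Of these genes, 98.5% had a LFC within 0.5 of 0. The unadjusted p in the authors' deposited table was 0.00104 for Retnla and 0.00196 for Trem2. At 1 CPM or more, 3.20% of genes had a p under 0.05 with a positive sign and 0.884% with a negative sign.

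The 4 Trem2 rows gave similar values, although rows of a gene share reads and are not replicates. Its intron-retaining transcript (4 exons, 5.15 CPM) had an LFC of 1.45, and both coding transcripts (5 exons, 4.96 CPM) had 1.48, with an unadjusted p of 0.00297 (adjusted: 0.571), in the authors' deposited table. A short processed transcript of 526 nt at 1.17 CPM had an LFC of 1.33 (0.12 to 2.54) by the authors' deposited table. Trem2 spans 48346401 to 48354147 on chromosome 17 (mm10, plus strand). Retnla has 1 row, a coding transcript of 4 exons and 599 nt that spans 48842551 to 48844461 on chromosome 16 (plus strand).

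Reads can be shared with overlapping or similar genes for some members. In GENCODE vM21, 7 of the 10 members, these 2 included, overlapped no other gene on either strand. No stretch of 50 bases of the Retnla transcript, or of the intron-retaining or the most abundant coding Trem2 transcript, occurred in a transcript of another gene. For Chil3, 29.4% of such stretches were shared, with its neighbour Chil4 holding the most, and for Lyz2 15.4%, with Lyz1 holding the most, so the values of Chil3 and Lyz2 are uncertain where shared reads were split. For Csf1r 17.7% were shared, with Hmgxb3 holding the most, which lies on the opposite strand over 873 of its 4701 exon bases. Hmgxb3 had an LFC of 0.03 at 10.9 CPM by the authors' deposited table, and the sources used here do not give the strand setting of the counting.

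Trem2 and Retnla also had unusually large errors for their level. The approximate standard error of the LFC was 0.47 for Trem2, against a median of 0.15 over the 998 genes within 0.25 of its mean log2 CPM, a ratio of 3.15. For Retnla it was 0.65 against 0.20 over 636 genes, a ratio of 3.24. In each case 99.2% of the genes of like level had a smaller error. Cd68 was the member nearest to Trem2 in mean level (6.42 against 5.15 CPM), though more than 0.25 from it in log2 CPM. Cd68 had an error of 0.19 and a ratio of 1.33 to genes of its own level.

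Wide errors were shared by most of the set. The ratio to genes of like level was 2.05 for Cx3cr1, 2.01 for Mrc1, 1.80 for Chil3, 1.64 for Adgre1, 1.49 for Cd163 and 1.19 for Lyz2. Csf1r, at 0.99, had the error of a typical gene of its level. Among 23 other mononuclear phagocyte genes of at least 1 CPM the median ratio was 1.63, and 20 of the 23 were above 1. The median ratio was 1.12 for the list of TREM2 partners and lipid-associated macrophage genes and 1.05 for the 8 tubule and podocyte genes. Several other lists had wider ratios, with medians, over genes of at least 1 CPM, of 2.37 for neutrophil (2 genes), 2.34 for lung (3 genes), 2.12 for B and plasma cell (4 genes) and 2.00 for hepatocyte genes. T and NK cell genes had a median ratio of 1.37 and dendritic cell genes one of 1.35, so wide errors were not confined to macrophage genes. The errors were computed at each gene's own LFC, and values of single mice behind them were not available.

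**Figure D3:**
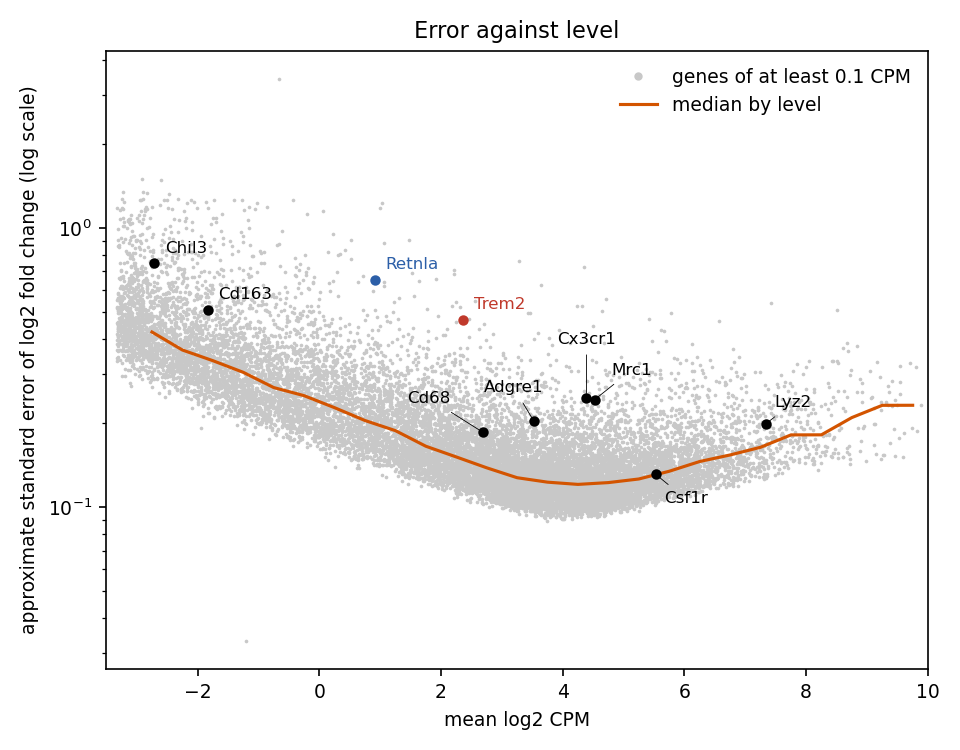
Approximate standard error of the LFC (y axis, log scale) against mean log2 CPM (x axis) for genes of at least 0.1 CPM in grey, with the median by level as a line. Retnla (0.65) and Trem2 (0.47) lie above nearly all genes of their level, and Csf1r (0.13) lies on the line.

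Other genes of the same cells were read from lists written with earlier results known. Of 25 further genes of mononuclear phagocytes, 22 were positive, and the median LFC was 0.16, and none was called in the authors' deposited table. All 23 of at least 1 CPM lay within 0.5 of 0. Those of highest level per length were the protease gene Lgmn (0.28), which tubule cells also express, the complement gene C1qa (0.16) and the cathepsin gene Ctss (0.16), given as LFCs in the authors' deposited table. Small positive values were usual here, since 71.8% of genes of at least 1 CPM were positive, and the median was 0.08.

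The partners of TREM2 had smaller LFCs, and their difference from Trem2 was not tested. Tyrobp, its signalling adaptor, had an LFC of 0.21 (-0.10 to 0.52) at 16.1 CPM, and the kinase gene Syk one of 0.14 at 7.42 CPM by the authors' deposited table. A list of 20 genes held those of TREM2 signalling and of lipid-associated macrophages, and also the relative Trem1, its lowest value at -2.06. Of the 20, 15 had a positive sign and the median was 0.15. None was called or had an unadjusted p under 0.05 in the authors' deposited table. The most abundant per length were Spp1 (osteopontin, 0.26), Cd63 (0.17) and the apolipoprotein gene Apoe (0.34) as LFCs in the authors' deposited table, and kidney cells other than macrophages express all 3. Gpnmb, a marker of lipid-laden macrophages, stood at -0.57 and 2.00 CPM with p = 0.201 in the authors' deposited table.

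The TREM receptor relatives, a list added after values were seen, had no call among 5 genes. Trem1, which amplifies inflammation in neutrophils and monocytes, had an LFC of -2.06 (-4.52 to 0.39) at 0.378 CPM by the authors' deposited table. Trem3 stood at -1.33, Treml1 at 0.53, Treml2 at 0.29 and Treml4 at 0.20 in the authors' deposited table, each with an interval that includes 0. Only Treml2, at 1.00 CPM, reached 1 CPM.

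Products of alternative activation did not share a sign. Arg1, the arginase of such macrophages and also of liver, had an LFC of 2.25 (0.93 to 3.57) at 1.65 CPM, with an unadjusted p of 0.000809 (adjusted: 0.385) in the authors' deposited table, opposite in sign to Retnla at -2.14. Chil3 (-0.50), Mrc1 (-0.03), the lectin genes Mgl2 (-0.15) and Clec10a (0.07) and the chemokine gene Ccl24 (0.12) had intervals that include 0, as LFCs in the authors' deposited table. Ear2, an eosinophil-associated ribonuclease gene, had one of 1.01 (p = 0.00524, or 0.647 when adjusted) in the authors' deposited table. The list of 19 genes read here also holds genes of the interleukin-4 signal and leaves out Retnla, Chil3 and Mrc1. Of its genes 14 were positive, the median was 0.12 and none was called.

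Genes that carry the interleukin-4 signal lay near 0. Il4ra, the receptor chain, had an LFC of -0.08 and Il13ra1, its partner for interleukin-13, one of -0.19 in the authors' deposited table. Stat6 stood at -0.05, Jak1 at 0.03 and the transglutaminase gene Tgm2 at 0.01 in the authors' deposited table, the last 3 being the list's highest levels per length. The cytokine genes themselves were at or near the bottom of the table, Il4 at 0.0368 CPM and Il13 at 0.0240 CPM by the authors' deposited table.

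Hepatocyte genes, a list added after values were seen, shared the sign of Arg1. All 10 were positive, and the median LFC was 1.13, and 7 had an unadjusted p under 0.05 although none was called. Over all genes, 57.9% were positive and 5.12% had such a p. Since the list was written with its values known, nothing is read from these counts. Over the 6 hepatocyte genes of at least 1 CPM the median LFC was 0.52. The highest per length, Ttr (0.45 at 60.9 CPM), Serpina1a (0.14 at 26.9 CPM) and Fga (0.21 at 19.4 CPM), had an unadjusted p above 0.1 by the authors' deposited table. Besides Alb and Cps1, an unadjusted p under 0.05 was found for Fgb (1.05), Apoa2 (0.58), Apoa1 (1.20), Ahsg (1.98) and Tat (2.59) in the authors' deposited table. Albumin (Alb) had an LFC of 1.27 at 6.53 CPM and Cps1, the entry enzyme of the urea cycle, one of 2.21 at 0.129 CPM by the authors' deposited table. Haptoglobin, encoded by Hp, binds the haemoglobin that CD163 clears and is itself a liver product. Hp stood at 1.40 and 4.55 CPM (p = 0.00779, or 0.685 when adjusted) in the authors' deposited table. The part of hepatocyte RNA in the Arg1 and Hp values was not tested.

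The measured relatives of Retnla had the opposite sign. Retn, which encodes resistin, a hormone of mouse fat cells, had an LFC of 2.16 at 0.197 CPM (p = 0.00850, or 0.696 when adjusted), and Retnlg one of 0.79 at 0.0751 CPM (p = 0.447) in the authors' deposited table. Of 8 adipocyte genes 7 were positive, with a median LFC of 2.32, a range from -0.02 to 4.61 and summed levels of 31.8 CPM. Over the 4 of at least 1 CPM the median LFC was 0.13. Adipoq (4.55 at 0.216 CPM), Plin1 (4.61 at 0.0660 CPM), Lep (3.15 at 0.0583 CPM), Cidec (1.48 at 0.369 CPM) and Cfd (3.77 at 1.43 CPM) had an unadjusted p under 0.05. Fabp4 (0.19 at 21.7 CPM), Lipe (-0.02 at 6.81 CPM) and Pparg (0.07 at 1.19 CPM) did not, in the authors' deposited table. Retnla is known from mouse fat tissue and lung as well as from macrophages. Its sign was opposite to that of 7 of the 8 adipocyte genes, of which Fabp4 and Pparg lay close to 0. The part of fat cell RNA in the Retnla value was not tested.

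The lung and airway list held the 1 called gene of all lists. Scgb1a1, a secreted protein gene of airway club cells, had an LFC of -2.95 at 0.0723 CPM and passed in the authors' deposited table (adjusted p 0.0217), with the same sign as Retnla. Of 9 lung and airway genes measured, 5 were positive and 4 negative. The surfactant and secretoglobin genes Sftpb (2.04 at 0.0240 CPM), Sftpc (-1.95 at 0.0294 CPM), Sftpa1 (-2.59 at 0.0221 CPM) and Scgb3a2 (-2.14 at 0.0231 CPM) did not pass and were near the lowest level, with Sftpb opposite in sign to the others, in the authors' deposited table. Lamp3 was also positive (3.16 at 0.0231 CPM, p = 0.00897), and Foxj1 (0.27), Ager (0.15) and Sftpd (0.23), the list's highest per length, had an unadjusted p above 0.05 in the authors' deposited table. The summed level of the 9 genes was 8.28 CPM, most of it from Foxj1 (5.11 CPM), Ager (1.87 CPM) and Sftpd (1.10 CPM). The part of lung or airway RNA in the Retnla value was not tested.

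Chitinase-like and lysozyme relatives were scarce. Chil1 had an LFC of -0.21 at 0.867 CPM, Chil4 one of -0.24 at 0.0314 CPM, Chia1, the acidic chitinase, one of 1.01 (p = 0.0103) and Chit1 was listed at 0.00 and 0.0216 CPM by the authors' deposited table. Lyz1, the lysozyme gene of intestinal Paneth cells, had one of -0.66 at 1.68 CPM with p = 0.159 in the authors' deposited table. None of these 5 was called.

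The ligands of CSF1R and CX3CR1 had no call either. Il34, the CSF1R ligand that tubule cells make, had an LFC of -0.33 (-0.68 to 0.03) at 27.2 CPM with p = 0.0699, and Csf1 one of 0.12 at 12.4 CPM by the authors' deposited table. Cx3cl1, fractalkine, stood at -0.02 and 71.2 CPM and Csf2ra at 0.11 in the authors' deposited table. Csf2, the gene of GM-CSF, had the 1 unadjusted p under 0.05 among these 8 genes, at -2.52 and 0.134 CPM (p = 0.0473) in the authors' deposited table. The list had 3 positive and 5 negative signs.

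**Figure D4:**
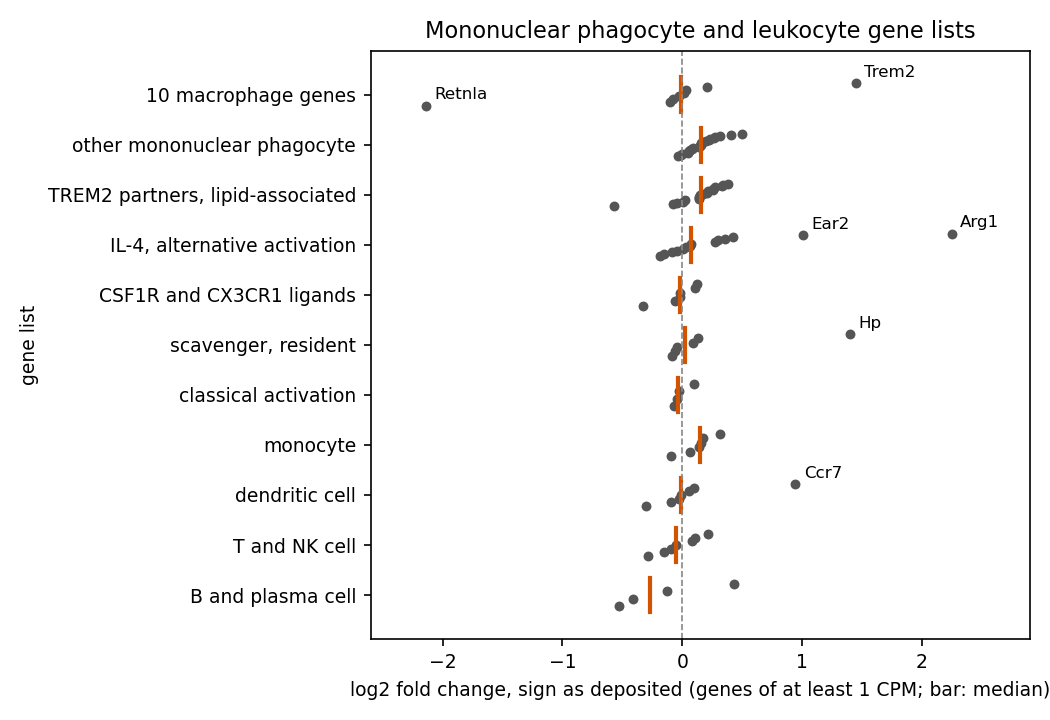
LFC (x axis, sign as deposited) of each gene of at least 1 CPM in 11 gene lists (y axis), with the median of each list as an orange bar. Trem2 (1.45), Arg1 (2.25), Hp (1.40), Ear2 (1.01) and Ccr7 (0.94) stand to the right of their lists and Retnla (-2.14) to the left.

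Scavenger receptor and resident macrophage genes gave 7 positive and 4 negative signs of 11, with a median LFC of 0.13 and no call. The fatty acid receptor gene Cd36 (-0.04), the haem oxygenase gene Hmox1 (-0.06) and the iron exporter gene Slc40a1 (0.09) had the highest levels per length in the authors' deposited table. Lyve1 (0.0771 CPM), Timd4 (0.0441 CPM) and Marco (0.0397 CPM) were near the lowest level, and Marco had an LFC of 3.17 with p = 0.0123 in the authors' deposited table. Of 10 genes of classical inflammatory activation, 7 were negative, and the median was -0.05 and no unadjusted p under 0.05. Cxcl10 (0.10), Ccl2 (-0.03) and Il1b (-0.04) were the highest per length in the authors' deposited table.

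Markers of other leukocytes gave no call. The 9 monocyte genes had a median LFC of 0.16, with Ace (-0.09, also a proximal tubule gene), Plac8 (0.16) and the chemokine receptor gene Ccr2 (0.14) highest per length in the authors' deposited table. Of the 10 neutrophil genes, 5 were under 0.1 CPM, among them Ly6g, Mpo and Elane, and S100a9 (-0.52), S100a8 (-0.37) and Cxcr2 (-1.27) did not reach an unadjusted p under 0.05 in the authors' deposited table. The 8 dendritic cell genes had a median of 0.02, with Batf3 (0.05), Cd209a (-0.01) and Zbtb46 (0.10) highest per length and Ccr7, the receptor for homing to lymph nodes, at 0.94 (p = 0.00961, or 0.707 when adjusted) in the authors' deposited table.

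The 10 T and NK cell genes had a median LFC of 0.10, and the 7 of at least 1 CPM one of -0.05. Cd3g (-0.10), Lck (0.11) and Nkg7 (-0.29) were highest per length, and Klrb1c stood at 1.00 (p = 0.00376, or 0.590 when adjusted) in the authors' deposited table. The 8 B and plasma cell genes had a median of 0.26, and the 4 of at least 1 CPM one of -0.27. Igkc (-0.41), Ighm (-0.13) and Jchain (-0.52) were highest per length in the authors' deposited table. Of 8 eosinophil and mast cell genes, 6 were under 0.1 CPM. Kit (-0.02), Siglecf (0.22) and Prg2 (0.02) were highest per length, and Ccr3 (2.88, p = 0.0195) and Cpa3 (-3.82, p = 0.00252) had an unadjusted p under 0.05 in the authors' deposited table. The 7 genes listed for peritoneal macrophages and mesothelium all were positive, with a median of 0.18, where 57.9% of all genes were positive. Each of the 7 had an interval that includes 0. Icam2 (0.14), Wt1 (0.17) and Gata6 (0.03) were highest per length in the authors' deposited table.

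Fold change fell with transcript length across genes, with a Spearman's rho of -0.51 over 13115 genes of at least 1 CPM, a description across genes that share libraries. After removal of this trend and that on level, the LFC was 1.43 for Trem2 and -2.35 for Retnla, against 1.45 and -2.14 before. The other 8 members lay between -0.66 (Chil3) and 0.05 (Cd68), and the median of the 25 further mononuclear phagocyte genes was 0.02.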

How the data were processed

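RNA of whole kidneys from 5 vehicle and 5 quinolinic acid mice was sequenced, and groups follow the sample titles. Reads were checked with FastQC 0.11.2, with STAR 2.5.3a, Subread 1.4.6 (featureCounts) and edgeR also listed and mm10 as the build, per the submitters' processing notes. Strand setting, filters and annotation release are not given in the sources used here. The authors deposited, for 85107 transcripts, a log2 fold change and log2 mean CPM, a likelihood-ratio score with 1 degree of freedom, a p-value and an adjusted p-value. No value of a single library is used here, so depth is unknown and no test of replicates was possible.

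Rows were joined to GENCODE vM21 by transcript identifier without version (98.0% matched), and each gene was represented by its row of highest mean CPM. The authors' edgeR likelihood-ratio test is the only test, called at a deposited adjusted p under 0.05. An approximate standard error was had by dividing the size of each fold change (log2) by the root of its likelihood ratio. Trends were removed by loess (span 0.5, R 4.3.3). BH adjustment and the removal of a planted straight-line length trend were checked on simulated data. The simulated likelihood ratios were set from the errors, so this checked the arithmetic of the errors and not how close the approximation is. Python 3.11.15, numpy 2.4.6, pandas 2.3.3, scipy 1.17.1 and matplotlib 3.10.9 were used. Alternatives were other thresholds, sets for adjustment, transcripts and trends.

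The members and lists were chosen with earlier results of these data known. All members are named, and from each list the 3 genes of highest CPM per kb, with genes of unadjusted p under 0.05, except that 1 result is not reported here. Genes named for another reason, such as a direct partner of a member or a family relative, were chosen after their values were seen.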

Additional observations from a re-analysis of the deposited data

How the results depend on the processing

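No member was called at an adjusted p under 0.05 or 0.1, nor when p was adjusted over 1 row per gene, over genes of at least 1 CPM or over protein-coding transcripts, where the smallest adjusted p of a member, that of Retnla, was 0.377, 0.544 and 0.340. At an unadjusted p under 0.05 the count was 2, Trem2 and Retnla. Among list genes 1 was called, and 2 at an adjusted p under 0.1 (Scgb1a1 and Adipoq), an alternative chosen after seeing the data. Trem2 ranged from 1.43 to 1.48 and Retnla from -2.35 to -2.14 over the transcripts and trends tried. Of 40 alternative log2 fold changes of members 35 kept their sign. Adgre1 became -0.0576 and Cd163 -0.0636 with the length and level trend removed, and -0.0439 and -0.0612 with GC content added, while Mrc1 became 0.0404 as the median of its rows, and the cause was not tested. The median of the members was -0.01 over the coding transcripts and under the CPM filter. It was also -0.01 without Trem2 and Retnla, an alternative added after seeing the data. These 2 are the highest and lowest members, so leaving out both could not move the median. The coding transcripts changed the value of Trem2 alone, which stayed the highest, and the CPM filter took 1 member from either side of the median. With the trend removed the median was -0.06. No paired analysis was possible because the values are a finished comparison without single libraries, and leaving out each replicate was not run for the same reason. The low level of Cd163 and Chil3 limits what their values can show.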
